A study of Mus musculus with 36 samples.

Results

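The chemokine ligands and chemokine receptors of the mouse were followed through 3 maps of replication timing (RT), the time within S phase at which a stretch of the genome is copied. The set held every autosomal protein-coding gene whose symbol is Ccl, Cxcl, Ccr or Cxcr followed by digits. This gave 52 genes of the 21418 autosomal protein-coding genes in the mm9 annotation, namely 35 ligands and 17 receptors. Each gene was read at its start, on its own strand, as lying in an early (E), a middle (M) or a late (L) domain. The choice of genes used their names and no measured value.

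RT came from Repli-seq. Here dividing cells take up the base analogue BrdU, are sorted by DNA content into early and late S phase, and the labelled DNA of each fraction is sequenced. The maps of B cells rested on 8 of the 36 libraries of the series, 4 for shLacZ CH12 cells and 4 for WT primary B cells, each with 2 replicates of the early and 2 of the late fraction. CH12 is a mouse B lymphoma line, used here as 1 clone. The cells had been infected with a lentivirus expressing a short hairpin RNA against LacZ, a bacterial gene that mouse cells lack, as the control for infection, and selected with puromycin, and the culture notes name stimulation with IL4, CD40 and TGF beta. The primary B cells were activated splenic B cells of WT (Rif1+/+) mice without the hairpin. Their age was not given in the sources used here. The 2 B cell maps therefore differ in cell type, in infection and in culture at once. A further map is named for WT mouse embryonic fibroblasts (MEFs). No labelled sample is tied to it, and it is called the MEF map below.

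Replicates had been merged before the states were called, so that each condition is 1 map. No test between maps and no replicate error can be had, and every comparison here is a count set beside the same count over all genes. Wilson 95% intervals are given for some shares. The methods describe both technical replicates, sorted from the same cells, and replicates from separately thawed vials of CH12 cells, and the labels do not say which kind the merged libraries were. The intervals cover counting over genes only and are too narrow for neighbouring genes, which share a domain. The states were fitted in each map by itself, so the RT value that separates E from M or M from L may differ between maps, and no RT value was used here. As a check of the state names, gene starts were densest in E and sparsest in L in every map. The shLacZ CH12 map had 18.9 starts per Mb in E, 8.45 in M and 3.79 in L.

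Chemokines are small secreted proteins that guide migrating cells, above all leukocytes. They are grouped as CC or CXC by the spacing of their first cysteines, and they act through receptors that span the membrane and signal through G proteins. In B cells, Cxcr5 and its ligand Cxcl13 draw cells into follicles, Ccr7 and its ligands Ccl19 and Ccl21 draw them towards the T cell zone, and Cxcr4 with Cxcl12 positions cells in bone marrow and germinal centres. Many inflammatory ligands are made by stromal cells, endothelium and myeloid cells.

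Receptor genes of the set were early in both B cell maps, whereas many of its ligand genes were not. All 17 receptors lay in E domains of shLacZ CH12 cells (100%, Wilson 95% interval 81.6 to 100) and 16 in E domains of primary B cells (94.1%, 73.0 to 99.0). In the MEF map only 8 of the 17 lay in E (47.1%, 26.2 to 69.0) and the other 9 in M. Of those 9, 7 belong to the Ccr9 locus on chromosome 9. Without that locus 8 of 10 receptors lay in E in the MEF map (80%), and with each locus counted once 7 of 10 did (70%). The ligands were early less often in the B cell maps than in the MEF map. Of 35, 14 were in E in shLacZ CH12 cells (40.0%, 25.6 to 56.4), 13 in primary B cells (37.1%, 23.2 to 53.7) and 28 in the MEF map (80%, 64.1 to 90). Over all autosomal protein-coding genes the shares in E were 51.8%, 59.2% and 61.1% in the same order of maps. The receptors of the set thus stood above all genes in both B cell maps. Of 7 other and atypical receptors outside the set, 4 were E in shLacZ CH12 cells (57.1%) and 5 in primary B cells (71.4%). Ligands stood below all genes in the B cell maps and above them in the MEF map. In shLacZ CH12 cells the ligand interval held the 51.8% of all genes. There the ligand share was 54.2% (13 of 24) without members within 100 kb of an edge, above that of all genes. It was 48.3% without the Ccl2 locus, 46.7% with each locus counted once, and below 40.0% without the Ccl5 locus. In primary B cells it was at most 44.8% under the alternatives. The share of all genes was not filtered in the same way. For receptors in the MEF map the share lay below that of all genes with the Ccr9 locus and above it without. The genes are not spread evenly. Members whose starts lay within 500 kb of the next formed 25 loci on 10 chromosomes, and 5 of these loci held 27 of the 52 members.

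**Figure D1:**
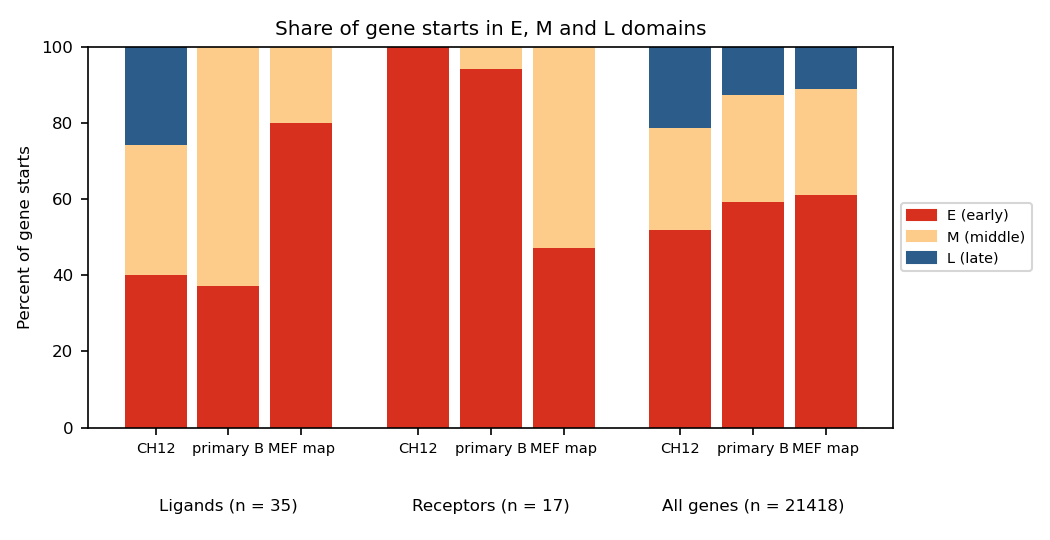
Stacked bars give the percent of gene starts in E, M and L domains (y axis, 0 to 100%) for ligands, receptors and all autosomal protein-coding genes in each of the 3 maps. Receptors are wholly in E in shLacZ CH12 cells and 47.1% in E in the MEF map, while ligands are 40.0% and 80% in E in those maps.

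Late states among the members were found in 1 map. In shLacZ CH12 cells 9 members lay in L domains (17.3% of the 52, against 21.3% of all genes), all of them ligands. In primary B cells and in the MEF map 0 of 52 lay in L, where all genes had 12.6% and 11%; a count of 0 of 52 has an upper Wilson bound of 6.88%. M held 12 members in shLacZ CH12 cells (23.1%, against 26.9% of all genes). It held 23 in primary B cells (44.2%, against 28.2%) and 16 in the MEF map (30.8%, against 27.9%).

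Between the 2 B cell maps, 41 of the 52 members kept their state, close to the 78.9% of all genes that did. In primary B cells 9 members were earlier than in shLacZ CH12 cells (17.3%, against 18.3% of all genes) and 2 were later (3.85%, against 2.80%). None was in E in one B cell map and in L in the other, which held for 0.626% of all genes. The members as a whole therefore differed between the B cell maps about as often as other genes. All 9 that were earlier in primary B cells were ligands in L in shLacZ CH12 cells and M in primary B cells, from 3 loci. They were Ccl2, Ccl7, Ccl11, Ccl12, Ccl8 and Ccl1 on chromosome 11, Cxcl1 and Cxcl2 on chromosome 5, and Ccl20 on chromosome 1. With the Ccl2 locus left out, 3 of 46 members (6.52%) were earlier in primary B cells.

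Against the MEF map the 2 classes parted. In shLacZ CH12 cells 9 members were earlier than in the MEF map (17.3%, against 5.87% of all genes), all of them receptors, and 15 were later (28.8%, against 23.4%), all of them ligands. The later share fell to 16.7% (5 of 30) without members within 100 kb of an edge and to 20% (5 of 25) with each locus counted once. It was 19.6% without the Ccl2 locus and 21.3% without the Cxcl5 locus. These values lie below the 23.4% of all genes, which was not filtered or counted by locus in the same way. Among the later ones, 8 were in E in the MEF map and in L in shLacZ CH12 cells, a difference found in one direction or the other in 2.17% of all genes. In primary B cells the same 9 receptors were earlier than in the MEF map (17.3%, against 10.3% of all genes). A further 16 members were later (30.8%, against 13.6%), of which 15 were ligands and 1 was the receptor Cxcr7. None was in E in one and L in the other of primary B cells and the MEF map, against 0.780% of all genes. Both comparisons share the MEF map. The receptor count rests on a single locus: 7 of the 9 earlier receptors belong to the Ccr9 locus, and without it 2 of 45 members (4.44%) were earlier in either B cell map.

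Read across the 3 maps, the members took 7 of the possible orders of states. The commonest, E in all 3, held 20 members, 13 ligands and 7 receptors (38.5%, against 45.8% of all genes). E in both B cell maps and M in the MEF map held the 9 receptors, from 3 loci (17.3%, against 3.69% of all genes). L in shLacZ CH12 cells, M in primary B cells and E in the MEF map held 8 ligands, also from 3 loci (15.4%, against 1.47%). The remaining members were in M in both B cell maps and E in the MEF map (6 ligands), in M throughout (6 ligands), in L, M and M (Ccl1), or in E, M and E (Cxcl14 and Cxcr7). Since neighbours share a domain, the 3 loci behind each of the 2 orders, rather than the 9 and 8 genes, are the separate observations.

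**Figure D2:**
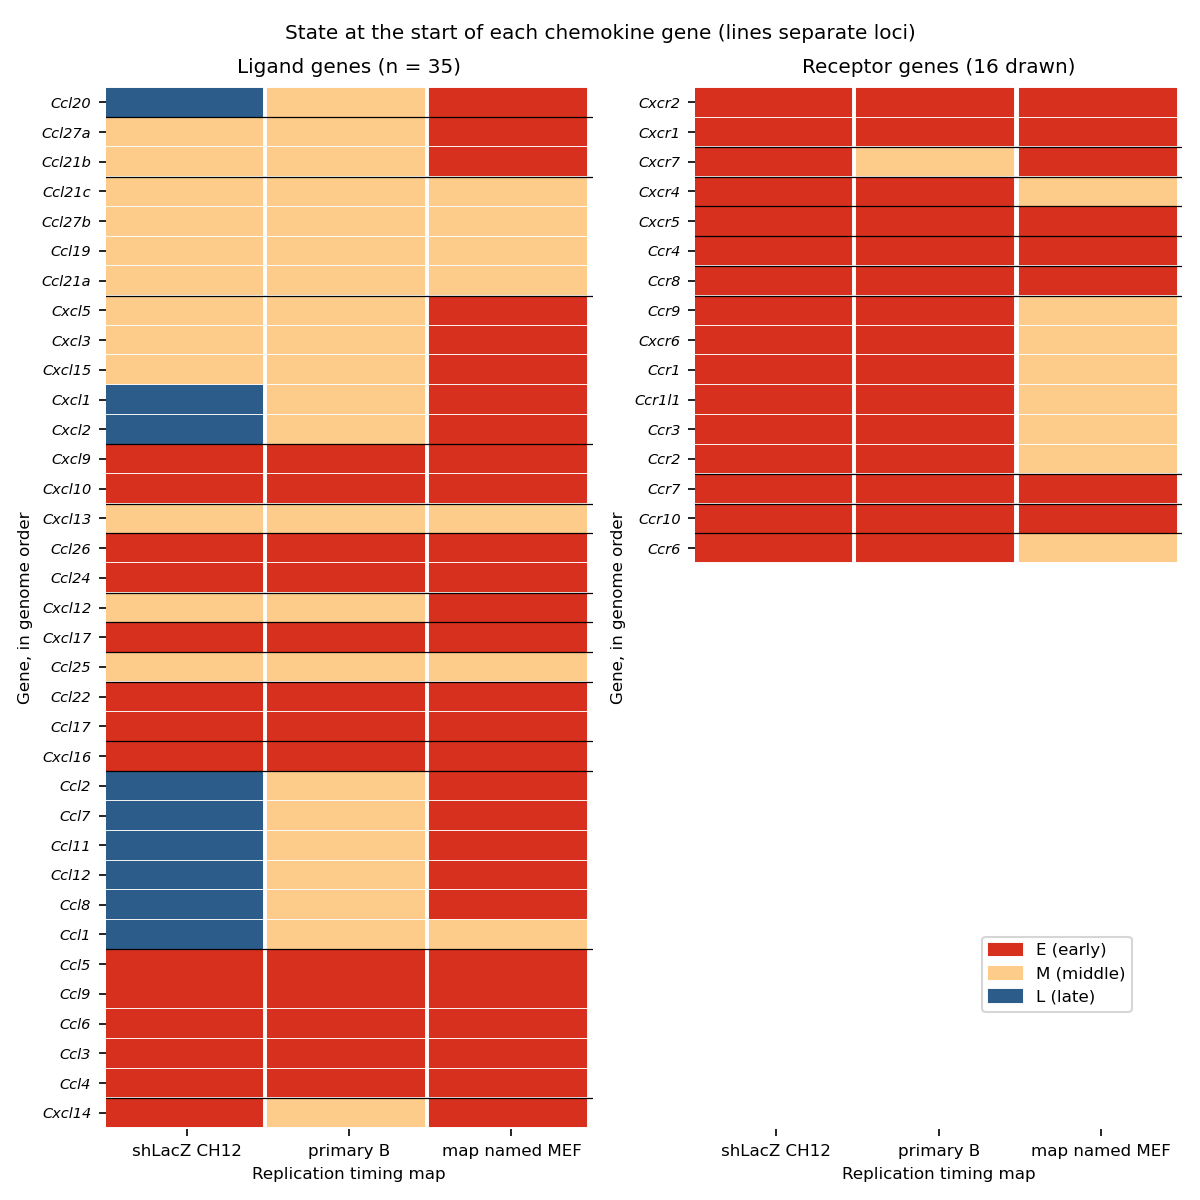
Each row is a gene, in genome order, with ligands on the left and receptors on the right, and each column is a map; red marks E, light orange M and blue L at the gene start, and black lines separate loci. Blue is found in the shLacZ CH12 column of 9 ligands alone, and 8 of the 16 receptors drawn are red in both B cell columns and light orange in the MEF column.

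The inflammatory CC ligands of chromosome 11 fell into a pair of neighbouring loci with different timing. The first holds the monocyte and eosinophil attractants, with Ccl2 (MCP-1, chr11:81849073-81850955), Ccl7, Ccl11 (eotaxin-1), Ccl12 and Ccl8, and with Ccl1, a ligand of Ccr8. All 6 starts lay in a single L domain of shLacZ CH12 cells, chr11:80900001-82260000 (1360 kb). All 6 lay in a single M domain of primary B cells, chr11:81380001-82400000 (1020 kb). In the MEF map the first 5 lay in an E domain of 480 kb, chr11:81620001-82100000, that was flanked by M on both sides. This E domain fell wholly within the primary B M domain. The Ccl2 start was 411 kb from the nearest domain edge in shLacZ CH12 cells, 469 kb in primary B cells and 229 kb in the MEF map, so that none of these states rested on a near edge, given the smoothing span of 300 kb, or 150 kb on each side. The nearest E domain was 811 kb from the Ccl2 start in shLacZ CH12 cells and 551 kb in primary B cells. Ccl1 was the exception in the MEF map. Its annotated model is 129 kb long and its start lay 19.2 kb past the edge, in M, whereas the end, the middle and most of the gene body lay in E.

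The second locus, with Ccl5 (RANTES), Ccl9, Ccl6, Ccl3 and Ccl4 (MIP-1 alpha and MIP-1 beta), lies further along and was early in every map. All 5 starts lay in 1 E domain in each map, chr11:82660001-84220000 in shLacZ CH12 cells, chr11:82400001-89060000 in primary B cells and chr11:83020001-89140000 in the MEF map. Their distances to the nearest edge ran from 324 kb (Ccl5, MEF map) to 1076 kb (Ccl4, primary B cells). The M domain between the loci was 400 kb long in shLacZ CH12 cells. The 2 neighbouring CC ligand loci thus lay in different states in both B cell maps, and in the MEF map both were E but were separated by an M domain of 920 kb.

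The CXC ligands that attract neutrophils through Cxcr2 sit together on chromosome 5. In the order of the chromosome, Cxcl5, Cxcl3, Cxcl15, Cxcl1 and Cxcl2 start within 145 kb. The stretches just upstream of these 5 starts are shown because the locus is cut by a domain edge in shLacZ CH12 cells, so that a reader can see what the genes on either side of it share. Each is the 110 bases before the annotated start in mm9 (NCBIM37), 5′ to 3′ on the strand of the gene, with matches to the NF-kB motif and to TATAAA on either strand in capitals.
Cxcl5 (chr5:91188215-91188324, + strand): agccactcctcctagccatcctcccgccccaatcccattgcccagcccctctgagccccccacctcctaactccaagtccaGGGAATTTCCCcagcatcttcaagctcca
Cxcl3 (chr5:91215019-91215128, + strand): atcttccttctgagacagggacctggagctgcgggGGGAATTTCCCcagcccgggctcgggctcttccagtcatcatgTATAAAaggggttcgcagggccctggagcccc
Cxcl15 (chr5:91223450-91223559, + strand): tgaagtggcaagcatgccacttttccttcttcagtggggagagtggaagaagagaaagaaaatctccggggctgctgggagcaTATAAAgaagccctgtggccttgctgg
Cxcl1 (chr5:91320157-91320266, + strand): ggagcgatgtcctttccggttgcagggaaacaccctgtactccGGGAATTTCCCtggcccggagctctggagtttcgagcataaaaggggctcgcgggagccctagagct
Cxcl2 (chr5:91332787-91332896, + strand): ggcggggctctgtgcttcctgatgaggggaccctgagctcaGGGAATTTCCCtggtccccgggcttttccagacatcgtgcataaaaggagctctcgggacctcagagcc

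Cxcl5, Cxcl3, Cxcl1 and Cxcl2 carried the same NF-kB motif match, which reads on both strands and begins 29, 75, 67 and 69 bases before the annotated start. No match was found in the 250 bases before Cxcl15, a ligand known from lung. The timing did not divide the genes along this line. In shLacZ CH12 cells Cxcl5, Cxcl3 and Cxcl15 lay in an M domain, chr5:90780001-91240000, and Cxcl1 and Cxcl2 in the next domain, L, chr5:91240001-91820000. Genes with the same motif therefore lay on both sides of the edge. The edge was 16.4 kb from the Cxcl15 start and 80.3 kb from the Cxcl1 start, both within the smoothing span, and the window of 150 kb around these starts held both states. In primary B cells all 5 were in M, chr5:90520001-91400000, with Cxcl2 67.1 kb from the L domain that follows. In the MEF map all 5 were in E, chr5:90820001-91780000, at least 368 kb from an edge. Pf4 and Ppbp, the platelet CXC ligands that lie between Cxcl5 and Cxcl3, had the same states as these neighbours, M, M and E.

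Ccl20, the ligand of Ccr6, was the third source of the late, middle, early order. Its start (chr1:83113341-83115742) lay in L in shLacZ CH12 cells, M in primary B cells and E in the MEF map. The distances to the nearest edge were 13.3 kb, 167 kb and 6.66 kb. The states in shLacZ CH12 cells and in the MEF map thus lie within 1 bin of 20 kb from an edge. Over the 500 kb on each side of the start the shLacZ CH12 map was 51.3% L and 48.7% M.

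The receptor locus at the end of chromosome 9 was early in both B cell maps and middle in the MEF map. Ccr9, the receptor for Ccl25 that guides cells to the small intestine, Cxcr6, and the inflammatory receptors Ccr1, Ccr1l1, Ccr3 and Ccr2 start between 123587557 and 124016689, and the chromosome ends at 124076172. These 6 lay in 1 E domain of primary B cells that ran to the chromosome end, chr9:122740001-124076172 (1336 kb). In the MEF map these 6 lay in 1 M domain, chr9:123540001-124076172 (536 kb). In shLacZ CH12 cells Ccr9 and Cxcr6 lay in an E domain of 340 kb, chr9:123420001-123760000, and the other 4 in an E domain of 200 kb, chr9:123860001-124060000. An M domain of 100 kb separated these, and a last M domain of 16.2 kb closed the chromosome. The distance of the 6 starts from an edge ran from 23.5 kb (Ccr1) to 168 kb (Ccr9) in shLacZ CH12 cells, from 59.5 kb (Ccr2) to 489 kb (Ccr9) in primary B cells and from 47.6 kb (Ccr9) to 193 kb (Ccr1) in the MEF map, counting the chromosome end as an edge. Thus 5 of the 6 lay within 100 kb of an edge in shLacZ CH12 cells. Xcr1, the receptor for Xcl1 on cross-presenting dendritic cells, starts in the M domain of 100 kb in shLacZ CH12 cells, 11.2 kb from its edge, and was E in primary B cells. In that M domain 71.1% of 50-base windows occur once in the genome, against 95.8% in the median autosomal bin, and the part of this in the M state was not tested.

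**Figure D3:**
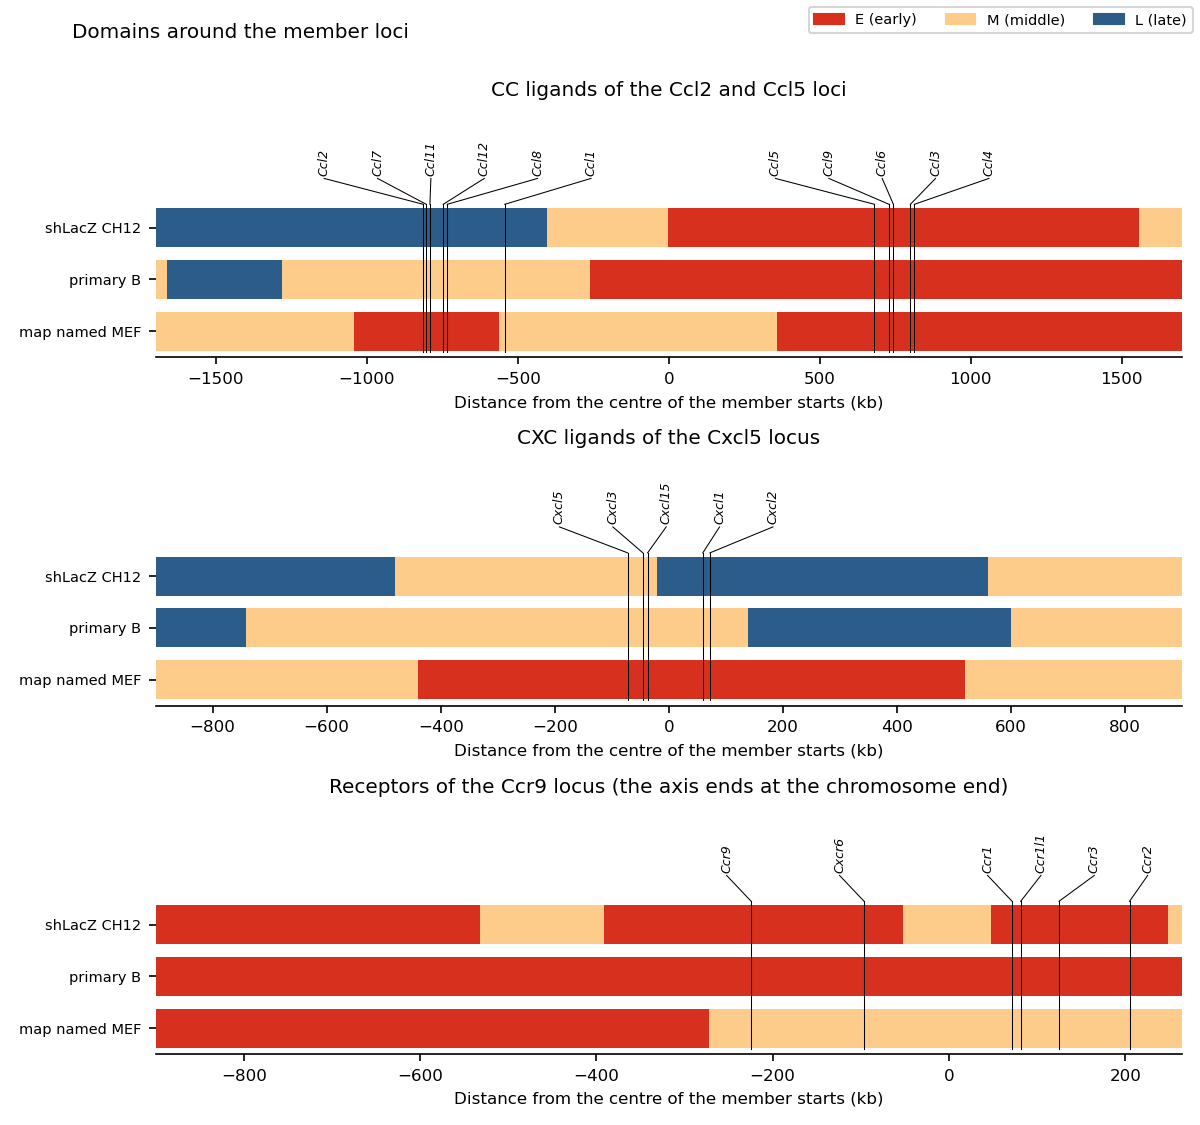
Domains of the 3 maps (rows; red E, light orange M, blue L) are drawn to scale around the Ccl2 and Ccl5 loci, the Cxcl5 locus and the Ccr9 locus, with distance from the centre of the member starts in kb on the x axis and a vertical line at each member start. The first 5 genes of the Ccl2 locus lie in an E domain of 480 kb in the MEF map and in L in shLacZ CH12 cells, and the 6 receptors drawn lie in E in both B cell maps and in M in the MEF map.

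The 6 receptors known from B cells and plasma cells were E in both B cell maps, and 3 of them were M in the MEF map. This was not particular to them. The 8 receptors listed as inflammatory were also E in both B cell maps, and 6 of those were M in the MEF map. The 2 receptors known from T cells were E in all 3 maps. Only Cxcr7, in none of these lists, was M in primary B cells. Of all genes, 51.8% were E in shLacZ CH12 cells and 59.2% in primary B cells. Cxcr5, Ccr7 and Ccr10, a receptor of IgA plasma cells, were E in all 3 maps. Cxcr4 (chr1:130484776-130488870) lay 331 kb from an edge in shLacZ CH12 cells and 391 kb in primary B cells, and in the MEF map it was in M, 351 kb from an edge and 449 kb from the nearest E domain. Ccr6 (chr17:8429077-8449992) was M in the MEF map, 951 kb from an edge and 2029 kb from the nearest E domain, while in the B cell maps it lay 231 kb and 291 kb inside E domains of 720 kb and 820 kb. The M states of Cxcr4 and Ccr6 in the MEF map were therefore far from any edge. Of the 6 receptors known from B cells and plasma cells, only Cxcr4 and Ccr9 had a CpG-rich upstream stretch. Their observed over expected CpG was 0.880 and 1.08, and the sequence before Cxcr4 is printed for this reason. The capitals mark TATAAA on both strands, where the matches overlap.
Cxcr4 (chr1:130488871-130488980, - strand): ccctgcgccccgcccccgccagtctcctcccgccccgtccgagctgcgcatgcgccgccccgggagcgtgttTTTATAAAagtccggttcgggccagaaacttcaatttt

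The ligands of these receptors were in M in both B cell maps, except Ccl20, which was L in shLacZ CH12 cells. Cxcl13, the ligand of Cxcr5, was M in all 3 maps, 54.1 kb from an edge in shLacZ CH12 cells and 814 kb in the MEF map. Cxcl12, the ligand of Cxcr4, was M, M and E. Its start lay 1.45 kb inside an M domain of shLacZ CH12 cells and its gene body lay mostly in the E domain next to it, whereas in primary B cells the start was 899 kb from an edge. Ccl25, the ligand of Ccr9, was M in all 3 maps, at least 295 kb from an edge. Ccl20, as given above, was L, M and E, beside E, E and M for its receptor Ccr6. The pair Cxcl12 and Cxcr4 had the same crossing, with the receptor earlier in the B cell maps and the ligand earlier in the MEF map. Cxcl13 with Cxcr5, and Ccl19 and Ccl21a with Ccr7, did not cross, since receptor and ligand each had 1 state throughout.

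The remaining receptors of the set were early in shLacZ CH12 cells without exception. Cxcr1 and Cxcr2, the receptors of the neutrophil attractants, shared an E domain in each map. Ccr4 and Ccr8, known from T cells, were E in all 3 maps, at least 119 kb from an edge. Cxcr7, an atypical receptor that binds Cxcl12, was E in shLacZ CH12 cells, M in primary B cells and E in the MEF map. In shLacZ CH12 cells it lay 0.555 kb from the edge of an E domain of 120 kb. There 80.1% of the 500 kb on each side of it was M. In primary B cells and the MEF map it was 421 kb from an edge. Cxcl14 had the same order of states, and it too lay near an edge in shLacZ CH12 cells, at 2.09 kb, against 398 kb in primary B cells and 562 kb in the MEF map. With all members within 100 kb of an edge in either map left out, 0 of 34 members were later in primary B cells than in shLacZ CH12 cells. Cxcr7 and Cxcl14, the members later in primary B cells, were thus both among those left out.

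Of the other ligands, the interferon-induced Cxcl9 and Cxcl10, which act on the T cell receptor Cxcr3, were E in all 3 maps, at least 102 kb from an edge. The sequence before Cxcl10 is shown as an example of an inflammatory ligand with NF-kB motif matches, in capitals, that was E in every map.
Cxcl10 (chr5:92777916-92778085, - strand): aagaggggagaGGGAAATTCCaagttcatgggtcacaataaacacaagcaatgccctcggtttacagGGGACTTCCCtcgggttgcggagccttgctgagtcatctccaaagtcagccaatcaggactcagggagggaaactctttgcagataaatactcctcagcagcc
The eosinophil attractants Ccl24 and Ccl26, the Ccr4 ligands Ccl17 and Ccl22, Cxcl16 (the ligand of Cxcr6) and the mucosal Cxcl17 were likewise E throughout, at least 362 kb from an edge. Of the 11 ligands of mucosa, skin and thymus, 7 were E in shLacZ CH12 cells (63.6%, against 51.8% of all genes). In primary B cells 6 were E (54.5%, against 59.2%) and in the MEF map 9 (81.8%, against 61.1%).

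For comparison with Cxcl10, the sequence before Ccl2, which was L, M and E, has no NF-kB motif match in its 250 bases; its capitals mark a match to the STAT spacing TTCNNNGAA, which reads on both strands.
Ccl2 (chr11:81848913-81849072, + strand): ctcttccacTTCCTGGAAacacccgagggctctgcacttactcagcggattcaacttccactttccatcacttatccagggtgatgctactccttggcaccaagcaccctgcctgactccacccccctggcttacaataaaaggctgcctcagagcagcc
Absence of a match says only that these letters are not in this window. Other members did not divide as this pair did. Cxcl1, Cxcl2 and Ccl20 had an NF-kB motif match and were L, M and E. Ccl3, Ccl4 and Cxcl9 had none and were E in all 3 maps. Ccl5 and Ccl9, like Cxcl10, had a match and were E in all 3 maps.

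The homing ligands Ccl19 and Ccl21, which bind Ccr7, and the skin ligand Ccl27 require a caution about their state. Ccl27a, Ccl21b, Ccl21c, Ccl27b, Ccl19 and Ccl21a all lay in 1 M domain in each B cell map, chr4:41720001-43360000 in shLacZ CH12 cells and chr4:41720001-43280000 in primary B cells, with E on both sides. In the MEF map Ccl27a and Ccl21b were E and the other 4 lay in an M domain, chr4:41780001-42860000, again between E domains. The Ccl27a start lay 1.12 kb inside the M domain in both B cell maps, and most of its gene body lay in the E domain beside it. The stretch holds near-identical copies, and only uniquely aligned reads had been kept. The upstream sequences of the Ccl21 genes show how alike the copies are. Of 250 bases, Ccl21b differed from Ccl21a at 1 and Ccl21c, aligned with a shift of 1 base, at 2. The 150 bases next to the start hold all of these differences, in capitals.
Ccl21a (chr4:42787526-42787675, - strand): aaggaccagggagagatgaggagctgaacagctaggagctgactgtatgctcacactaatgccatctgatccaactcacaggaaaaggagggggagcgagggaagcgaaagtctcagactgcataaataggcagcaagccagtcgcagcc
Ccl21b (chr4:41774054-41774203, + strand): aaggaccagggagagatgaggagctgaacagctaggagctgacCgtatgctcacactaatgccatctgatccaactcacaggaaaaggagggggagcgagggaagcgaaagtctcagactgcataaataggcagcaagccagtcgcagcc
Ccl21c (chr4:42393084-42393233, - strand): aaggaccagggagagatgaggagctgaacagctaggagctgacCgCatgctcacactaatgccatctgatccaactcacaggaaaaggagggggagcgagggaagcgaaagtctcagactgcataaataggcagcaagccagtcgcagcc

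Repeated sequence ran through the whole stretch. In chr4:41720001-42880000 (1160 kb) 2.74% of 50-base windows, the length of the reads of the B cell libraries, occurred once in the genome. In the M domain of the MEF map the share was 1.01%, and in the bins of the Ccl21c, Ccl27b, Ccl19 and Ccl21a starts it was 0. Both limits of that M domain lay within 1 to 3 bins of the limits of the repeated stretch. In both B cell maps the M domain began where the repeated stretch began, at chr4:41720001, and went on beyond its far end. The 500 kb from chr4:42860001-43360000, M in shLacZ CH12 cells, had 91.8% of windows found once. Over the genome, bins with fewer than 10% of windows found once were M more often than other bins, namely 45.3% of them in shLacZ CH12 cells, 76.9% in primary B cells and 67.3% in the MEF map, against 25.6%, 31.8% and 37.1% of all bins. The part of missing unique reads in the M state of these 6 ligands was not tested. Outside them, 3 of the 46 members were in a bin with under 80% of windows found once, the lowest being Ccl17 with 76.8%, and the median was 97.4%.

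**Figure D4:**
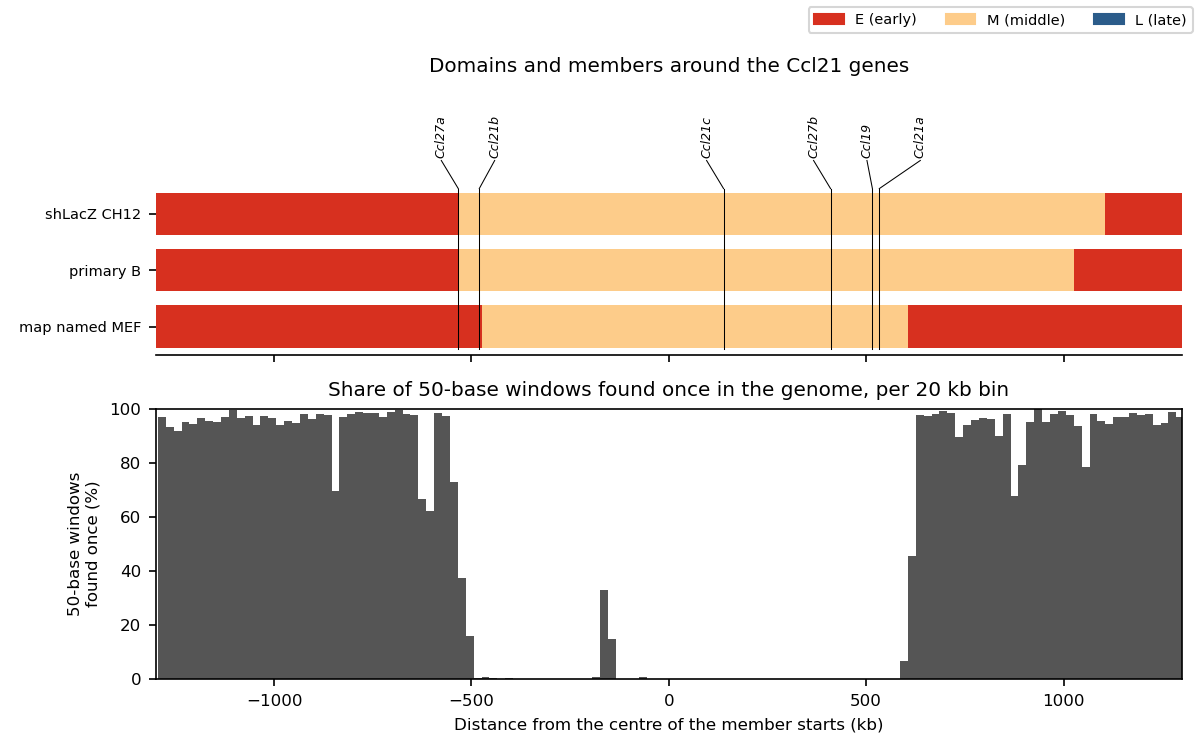
The upper panel gives the domains of the 3 maps and the starts of the 6 ligands, and the lower panel the percent of 50-base windows found once in the genome in each bin of 20 kb (y axis, 0 to 100%), both against distance from the centre of the member starts in kb. In the MEF map the M domain covers the stretch with almost no unique windows. In the B cell maps it begins with the repeated stretch and runs on past its far end into sequence that is largely unique.

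Some features that the choice of genes did not use are given here beside those of all genes. The genes were short, with a median length of 4.76 kb against 15.5 kb for all autosomal protein-coding genes. Their upstream 250 bases were poor in CpG, with a median observed over expected ratio of 0.227 against 0.506, and 4 of 52 (Cxcr4, Ccr9, Cxcl14 and Ccl25) reached 0.6, which is 7.69% against 42.7%. The NF-kB motif, searched on both strands, was found before 10 of 52 members (19.2%, against 4.17% of all genes), namely 8 ligands and the receptors Cxcr5 and Ccr3. Of these ligands, Cxcl5, Cxcl3, Cxcl1 and Cxcl2 are neighbours in 1 locus with the same match, so the 10 are not separate observations. TATAAA was found before 15 (28.8%, against 12.4%). The STAT spacing TTCNNNGAA was found before 5 (9.62%, against 6.79%) and the interferon element GAAANNGAAA before Cxcl10 and Cxcl14 (3.85%, against 3.31%). These motif matches are letters in a window and not binding sites. The GC content of the bins of the members had a median of 44.9%, as did that of all genes.

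A larger share of members than of all genes lay near a domain edge in shLacZ CH12 cells. There 18 of 52 starts were within 100 kb of an edge (34.6%, against 20% of all genes), compared with 6 in primary B cells (11.5%, against 18.6%) and 9 in the MEF map (17.3%, against 15.4%). Of these 18, 6 belonged to the Ccr9 locus and 5 to the Cxcl5 locus. The median distance was 289 kb in shLacZ CH12 cells, 409 kb in primary B cells and 370 kb in the MEF map, against 309, 319 and 408 kb for all genes.

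Genes of the wider chemokine pathway were mostly early, as were all autosomal protein-coding genes. Of 31, 19 were in E in shLacZ CH12 cells (61.3%, against 51.8% of all genes). In primary B cells 24 were in E (77.4%, against 59.2%) and in the MEF map 22 (71.0%, against 61.1%). In primary B cells 6 were earlier than in shLacZ CH12 cells (19.4%, against 18.3% of all genes) and 0 were later (against 2.80%). Among the signalling genes, Gnai2 and Gnai3, which encode G protein subunits of these receptors, the arrestin genes Arrb1 and Arrb2, Adrbk1 and Rac2 were E in all 3 maps. Rgs1 and Rgs13, which dampen G protein signalling in B cells, were M in shLacZ CH12 cells, E in primary B cells and M in the MEF map, as was Dpp4, a protease that trims chemokines. Vav1, a signalling adaptor of blood cells, was E, E and M, the order of the 9 receptors, and was the only signalling gene with it. Dock2 went the other way, at M, M and E, and Fpr1 was L, M and M. Of the 16 signalling genes, 1 was earlier in shLacZ CH12 cells than in the MEF map (6.25%, against 5.87% of all genes). In the same comparison 3 were later (18.8%, against 23.4%). Gpr183, S1pr1 and S1pr2, which guide B cells by lipid ligands, were E throughout. Among the 7 other and atypical receptors, Ccrl1 was M in all 3 maps and Darc was M, M and L, while 4 were E in shLacZ CH12 cells.

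Counts of other immune gene families are set beside the members here, without a test. MHC H2 genes had 23 of 36 in E in shLacZ CH12 cells (63.9%), 27 in primary B cells (75%) and 24 in the MEF map (66.7%), against 59.6%, 55.8% and 69.2% of the chemokine members and 51.8%, 59.2% and 61.1% of all genes. Their share in L in shLacZ CH12 cells, 16.7%, was close to the 17.3% of the members. Of 28 lectin receptor genes of natural killer cells, 8 were E in shLacZ CH12 cells, 9 in primary B cells and 1 in the MEF map (28.6%, 32.1% and 3.57%). Of 53 defensin genes, 31 were L in shLacZ CH12 cells, 24 in primary B cells and 18 in the MEF map (58.5%, 45.3% and 34%, against 21.3%, 12.6% and 11% of all genes). Interleukin and interleukin receptor genes, which are scattered more widely, had 47 of 80 in E in shLacZ CH12 cells, 61 in primary B cells and 53 in the MEF map, with 15 earlier in primary B cells than in the MEF map (18.8%, against 10.3% of all genes) and 8 later (10%, against 13.6%). The chemokine members had more later (30.8%) than earlier (17.3%) genes in that comparison. So did the defensin genes, with 6 of 53 later (11.3%) and 0 earlier. The lectin receptor genes had 10 of 28 earlier (35.7%) and 0 later, and the H2 genes 4 of 36 earlier (11.1%) and 1 later (2.78%). These are counts of genes that share domains, and the differences between families were not tested.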

How the data were processed

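Repli-seq libraries of 7 groups (36 libraries) were labelled in the series; the CH12 shLacZ and priB WT groups were used here, and the other 5 groups were not analysed here. According to the methods, the authors trimmed reads with trim_galore (0.6.5), aligned them to mm9 with bwa mem (0.7.17), kept unique alignments with samtools (1.9), merged the replicates and removed duplicates. RT was the log2 of early over late reads in 20 kb windows, made with deepTools, smoothed by loess (span 300 kb) and cut into 3 hidden Markov states. How the reads behind the MEF map were processed before that step is not given in the sources used here. The values deposited by the authors are domain limits and a state number, a score with no unit, and the depth is unknown. Number 2 was read as E, 1 as M and 0 as L in both B cell maps, and 0, 2 and 1 in the MEF map. All 60 chromosome ends checked equalled the reference.

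Genes came from GENCODE M1 on NCBIM37; 53 gene records matched the names, and of the 2 for Ccl25 the longer was kept. Ccl28 was not analysed here. One member is in the counts but is not reported here on its own. The share of 50-base windows found once used a sample of 1 in 16 distinct sequences. Position, cover, interval and uniqueness functions were tested on simulated data, and 4 of 4 checks passed. Members and lists were chosen with earlier results of these data known. Named genes were members whose state differed between the B cell maps or was E in one map and L in another, loci of 3 or more, receptors of B cells with their ligands, and members nearest an edge. The tools were pysam 0.24.0, numba 0.67.0, pandas 2.3.3, matplotlib 3.10.9 and numpy 2.4.6 under Python 3.11.15. Alternatives were other gene positions, edge, uniqueness and naming filters, and counts by locus.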

Additional observations from a re-analysis of the deposited data

How the results depend on the processing

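No paired analysis was possible because each map pools its replicates. There were 49 shares and counts under 13 alternatives planned and 4 chosen after seeing the data, each of which left out a locus of 5 or more members. Of 635 values, 609 stayed within the main 95% interval, or within 1.5 times the main count, and 26 did not. Some of the 609 could not have moved. Leaving out the Cxcl5, Ccl2 or Ccl5 locus removed no receptor. Leaving out the Ccr9 locus removed no ligand, and including chromosome X added none. The 609 therefore overstates how little the results depend on the processing. Without members within 100 kb of a domain edge, the share of members later in primary B cells than in CH12 was 0 (main 3.85%), earlier in CH12 than in the MEF map 6.67% (17.3%) and later 16.7% (28.8%); for ligands later in CH12 it was 23.8% (42.9%) and for receptors earlier 22.2% (52.9%). With each locus counted once, members in L in CH12 and members earlier in primary B cells than in CH12 were both 8% (17.3%), and receptors earlier than in the MEF map were 30% (52.9%) in the CH12 map and 30% in the primary B map. Without the Ccl2 locus the first 2 shares were both 6.52%. Without the Ccr9 locus, members earlier than in the MEF map were 4.44% (17.3%) in the CH12 map and 4.44% in the primary B map, and receptors 20% (52.9%) and 20%. The gene end, middle or body gave another state to Ccl27a in both B cell maps, to Cxcl12 in CH12 and to Ccl1 in the MEF map. The 150 kb on each side gave another state to Cxcr7 in CH12. Depth, RT values and replicate spread are unknown here, and 1 map per condition limits every comparison.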

Other observations

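Genes of the same names that the choice left out had these states in shLacZ CH12 cells, primary B cells and the MEF map. Cxcr3, the receptor of Cxcl9 and Cxcl10, lies on chromosome X and was E, E and M, 610 kb from an edge in both B cell maps and 1370 kb in the MEF map. Cxcl11, which the annotation does not list as protein-coding, was E in all 3 maps, like its neighbours Cxcl9 and Cxcl10. The pseudogenes Ccl19-ps1 and Ccl19-ps3 lie in the repeated stretch of chromosome 4 and were M in all 3 maps, with 0.633% and 0 of the 50-base windows of their bins found once in the genome.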
